A study of Mus musculus with 2 samples.

Results

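The genes described here are 34 genes of glucose metabolism and of the response to low oxygen, chosen by name: 20 of glucose uptake, glycolysis and its regulation, and 14 of the hypoxia-inducible factor (HIF) pathway. They are 34 of the 34797 gene names on the array and were read from 53 of its 55659 probes. Of the 34, 32 were measured on both arrays, among 20413 genes measured in all. The array writes the pyruvate kinase gene Pkm as Pkm2, and that name is kept.

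The series holds 2 one-colour Agilent arrays of mast cells grown from the bone marrow of C57BL/6 mice. One array carried RNA of cells transfected with a control siRNA and the other RNA of cells transfected with an siRNA against GATA1, each at 200 pmol. Both cultures were grown from marrow mononuclear cells for 2 weeks with interleukin 3 at 10 ng/mL and then for 2 weeks with interleukin 3 and stem cell factor at 10 ng/mL. Each array was made from a pool of samples from 2 animals, so each group is 1 array, and no difference has a replicate check or a p-value. The animals' age and sex, the oxygen level of the culture and the time from transfection to RNA extraction are not given in the sources used here. The comparison asks which RNAs of the cultures differ once GATA1 is knocked down, a DNA-binding regulator of mast cells, eosinophils, platelet-forming cells and red cell precursors.

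Glycolysis converts glucose to pyruvate in the cytosol and yields ATP without oxygen. Several steps are run by small families of isozymes, and lactate dehydrogenase turns pyruvate into lactate so that the pathway can go on. HIF is a dimer of an oxygen-labile alpha subunit, such as the product of Hif1a, and a stable partner. In normal oxygen the prolyl hydroxylases encoded by the Egln genes mark the alpha subunit for destruction, so HIF1A is controlled mostly through protein stability. Under low oxygen it accumulates, binds core sequences such as ACGTG or GCGTG near its targets, and raises many glycolytic genes together with genes of blood vessel growth, mitophagy and collagen maturation. Mast cells are long-lived granule-filled cells of the immune system that use glycolysis when they are activated.

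Signals were divided by the 75th percentile of the array's probes, which was 303.2 for the control siRNA and 340.0 for the GATA1 siRNA, and a scaled signal is therefore in units of that percentile. A difference is the log2 of the scaled signal on the GATA1 siRNA array minus that on the control siRNA array. The error beside a difference is that of the scanner software, which covers the array only and neither the animals nor the cultures. Probes bind with different strength, so levels were not compared between genes. In RNA of whole cultures, fewer cells of a type and less RNA per cell cannot be told apart.

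Probes whose place on the genome spans far more bases than the probe itself are shown first. The probe for Pfkfb3, an enzyme that makes the activator of phosphofructokinase, spans 1414 bases of the genome (mm9, chr2:11404189-11405602, minus strand), far more than its own 60 bases, so it bridges an exon junction. The probe for Pfkp, the platelet-type phosphofructokinase, does the same over 2155 bases (chr13:6581718-6583872, minus strand). Each has at least 1 reading frame with no stop codon, which by itself does not place it in a coding sequence. Both are written 5′ to 3′.
Pfkfb3: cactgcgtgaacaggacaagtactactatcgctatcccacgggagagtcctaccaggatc
Pfkp: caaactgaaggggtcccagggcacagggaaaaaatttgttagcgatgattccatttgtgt
The log2 difference was -0.20 for each of these probes, with an error of 0.22 for Pfkfb3 and 0.20 for Pfkp. Both are below 0, and neither difference is larger than its error.

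Promoter windows were available for 31 of the 34 genes, from 250 bases before to 50 bases after each annotated start (RefSeq, GRCm38.p6). There was none for Bnip3l, Ndrg1 and Slc2a3. The HIF core was searched as ACGTG or GCGTG on both strands, and the palindrome CACGTG counts on each strand. It was present in 37 of the 49 windows of these genes (75.5%), against 43.8% of all 32851 windows. By gene, 28 of the 31 held it in at least 1 window. That count cannot be set against the 43.8%, since some genes have several windows and no count by gene was made over all windows. The GATA core, searched as AGATAA or AGATAG or TGATAA or TGATAG on both strands, was present in 7 of the 49 windows (14.3%), against 29.8% of all windows. It was found in 5 genes, Aldoa, Pfkfb4, Pfkm, Pkm2 and Vegfa. The windows of these genes are also richer in G and C, with a median of 62.3% against 52.7%, and the part of base composition in these shares was not tested. A match is a description of the letters and does not show binding.

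The 250 bases before the outermost start are printed for the 4 genes with the largest differences, Aldoc and Pdk1 on the higher side and Hif1a and Vegfa on the lower side, written 5′ to 3′ with both kinds of core in capitals. Aldoc encodes aldolase C, and its stretch lies at chr11:78322823-78323072 on the plus strand. Pdk1 encodes a kinase that shuts pyruvate dehydrogenase off, and its stretch lies at chr2:71872974-71873223 on the plus strand. Hif1a lies at chr12:73907617-73907866 on the plus strand. Vegfa encodes a growth factor for blood vessels and lies at chr17:46032378-46032627 on the minus strand.
Aldoc: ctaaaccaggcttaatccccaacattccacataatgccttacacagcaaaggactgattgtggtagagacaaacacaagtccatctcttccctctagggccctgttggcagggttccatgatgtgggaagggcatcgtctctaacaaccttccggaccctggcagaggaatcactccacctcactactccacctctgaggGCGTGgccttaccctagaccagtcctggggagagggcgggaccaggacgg
Pdk1: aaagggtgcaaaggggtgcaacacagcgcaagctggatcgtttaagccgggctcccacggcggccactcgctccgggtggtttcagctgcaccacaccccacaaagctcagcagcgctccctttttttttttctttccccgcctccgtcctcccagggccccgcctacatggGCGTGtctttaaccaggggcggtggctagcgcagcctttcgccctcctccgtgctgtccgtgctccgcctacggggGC
Hif1a: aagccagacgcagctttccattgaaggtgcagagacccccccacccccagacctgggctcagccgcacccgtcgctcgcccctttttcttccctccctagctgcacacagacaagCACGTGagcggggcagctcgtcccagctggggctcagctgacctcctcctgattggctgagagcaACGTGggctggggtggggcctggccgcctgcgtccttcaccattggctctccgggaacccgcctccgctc
Vegfa: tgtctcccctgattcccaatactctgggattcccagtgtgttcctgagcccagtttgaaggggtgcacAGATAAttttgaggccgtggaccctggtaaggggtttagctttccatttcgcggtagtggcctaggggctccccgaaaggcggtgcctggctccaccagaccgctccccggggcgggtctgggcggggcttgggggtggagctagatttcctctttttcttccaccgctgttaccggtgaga
Both genes that were higher hold HIF cores in the outermost window, as does Hif1a on the lower side. Aldoc has 1 in the printed bases and 2 in the 50 bases after the start. Pdk1 has 1 in the printed bases and 1 that runs across the start. At the inner starts, the other Aldoc window holds 1 HIF core and the other Pdk1 window holds 0. Hif1a holds 3 matches, of which 2 are the strands of a single CACGTG. The outermost Vegfa window holds no HIF core and 1 GATA core, AGATAA, while the other Vegfa window, at an inner start, holds 2 HIF cores and no GATA core. The hypoxia element for which Vegfa is known lies farther upstream than these windows reach.

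Few of these genes differed by much between the arrays. At the smaller rule of size, a log2 difference of at least 0.32 in either direction, 2 of the 32 measured genes were higher with the GATA1 siRNA (6.25%, against 7.31% of all measured genes) and 2 were lower (6.25%, against 9.5%). At the larger rule, 1.5-fold, none was higher, against 1.83% of all measured genes, and 1 was lower, against 2.76%. As processed here, these shares are near or under those of the whole array. They are not so under each alternative: with normexp background correction 3.39% of all measured genes were higher and 3.15% lower, while the count among the 32 stayed at 2 in each direction, above the array's share. With the stricter filter on dim probes, 2 of 30 genes were higher and 2 lower, above the array's shares of 5.485% and 5.198%. Of the 32 genes, 4 were higher with the authors' table, above the array's 10.4%, and 2 were lower, under its 7.17%. Median scaling gave 3 higher, above the array's 7.74%, and 2 lower, under its 9.07%. Loess scaling gave 2 in each direction, under the array's 8.51% higher and 7.39% lower. Without a filter 3 of 34 were higher and 2 lower, under the array's 10.66% and 33.31%. No gene of the 32 passed 2-fold as a mean over its probes. As processed here, the 2 higher genes are Aldoc and Pdk1, and the 2 lower ones are Hif1a and Vegfa. With normexp the 2 higher genes were instead Aldoc and Pkm2 (0.34), as Pdk1 fell to 0.23. A difference above 0 was found for 19 of the 32 (59.4%), against 52.7% of all measured genes, and their median was 0.08, against 0.01.

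**Figure D1:**
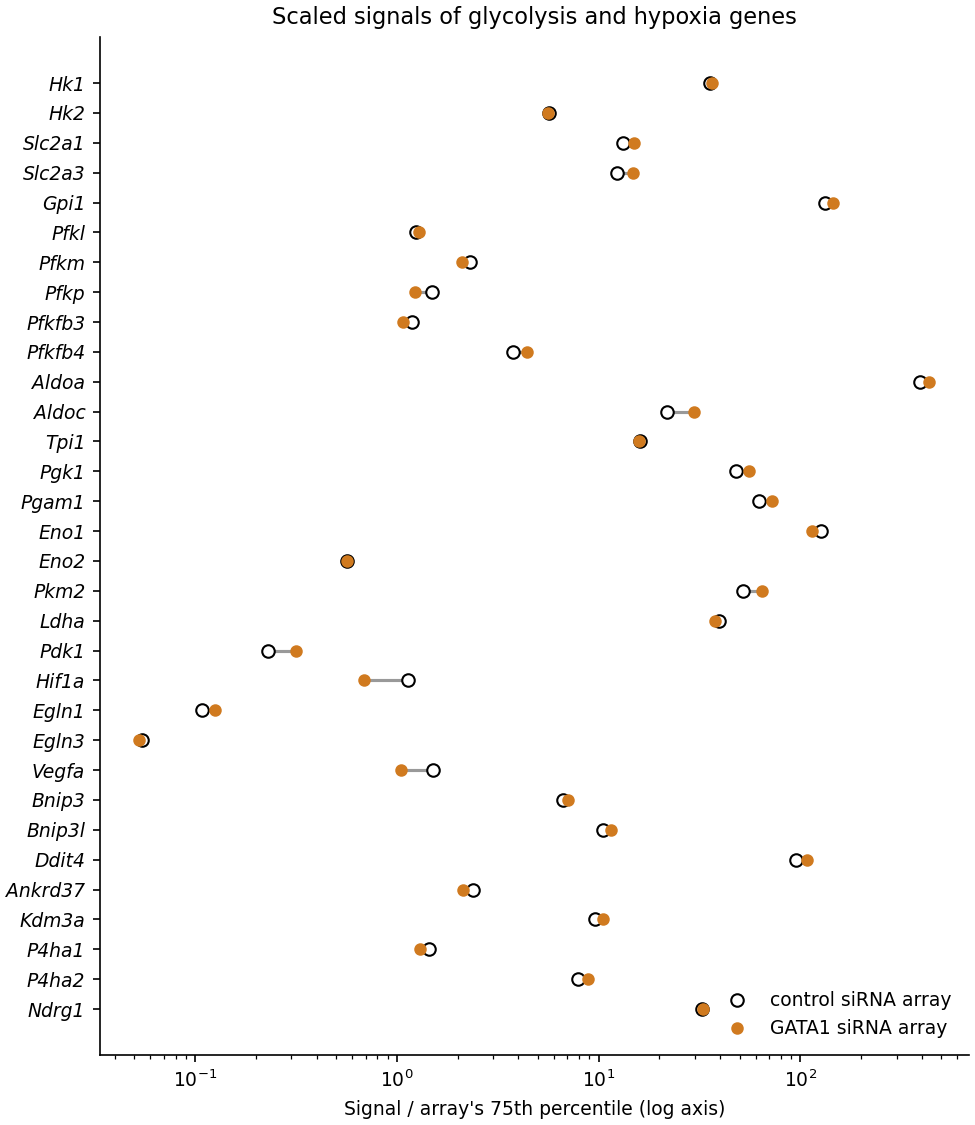
Scaled signals (signal divided by the array's 75th percentile, log axis) of the 32 measured genes, with 1 open point for the control siRNA array and 1 filled point for the GATA1 siRNA array. The points of most genes nearly touch, and the widest gap is that of Hif1a, from 1.13 to 0.68.

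The 20 genes of glucose uptake and glycolysis ranged from -0.29 to 0.46 in log2 difference, with a median of 0.10, 12 above 0 and 8 below. Glucose enters the cell through the transporters Slc2a1 and Slc2a3, encoding GLUT1 and GLUT3. Slc2a1 had a scaled signal of 13.2 with the control siRNA and 15.0 with the GATA1 siRNA, the order kept for every pair of values from here on, a difference of 0.18 with an error of 0.20. That of Slc2a3 was 12.3 and 14.7, a difference of 0.27 with an error of 0.20. Both transporters were nominally higher, and neither passed the smaller rule, although Slc2a3 did with the authors' table (0.33).

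Hexokinase traps glucose as glucose 6-phosphate. Hk1 read 35.5 and 36.7 as the mean of 3 probes, whose differences were -0.05, -0.01 and 0.20, and Hk2 read 5.71 and 5.62. Neither isozyme stood apart from 0. The next enzyme, phosphoglucose isomerase, is encoded by Gpi1, which read 132.1 and 145.5 as the mean of 3 probes. Its probes overlap almost fully in the genome and gave 0.13 to 0.15, so they are close to repeats of a single measurement.

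Phosphofructokinase, which commits the sugar to glycolysis, has 3 isozyme genes, which lay on both sides of 0. Pfkl, the liver type, read 1.24 and 1.29, a difference of 0.06. Pfkm, the muscle type, read 2.31 and 2.11, a difference of -0.13 with an error of 0.06, taking its spots as independent. Its probe is printed 10 times on each array, with signals before scaling of 671 to 721 (median 702) with the control siRNA and 687 to 753 (median 717) with the GATA1 siRNA. After scaling all 10 spots were below 0, from -0.21 to -0.04. Their agreement speaks to the precision of the array, not of the animals. Pfkp read 455 and 417 before scaling, a difference of -0.29 with an error of 0.15, from probes at -0.20 and -0.38. The brighter of the Pfkp probes is the junction-bridging one printed above.

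Of the bifunctional enzymes that set the level of fructose 2,6-bisphosphate, Pfkfb3 read 1.19 and 1.07, a difference of -0.16, and both its probes were below 0. Pfkfb4 read 3.75 and 4.40, a difference of 0.23, from 1 probe, while its second probe was not well above background. Without the filter on dim probes that second probe enters, and the Pfkfb4 difference becomes -0.07. The sign of Pfkfb4 thus depends on a probe that was not measured.

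The aldolases split fructose 1,6-bisphosphate. Aldoa, the main isozyme of most cells, read 393 and 436, a difference of 0.15. Aldoc, known best from brain, read 21.9 and 29.8, which is 1.36-fold higher (log2 difference 0.44, error 0.20). Of the 20413 genes, 3.89% were above Aldoc, and of the 899 genes within 0.5 log2 of its mean level, 14 were above it. Over the 11 alternative ways of processing, Aldoc ranged from 0.39 to 0.50, past the smaller rule in each.

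The genes of the later steps gave small differences of both signs. Tpi1, triosephosphate isomerase, read 16.0 and 15.8. Pgk1, the first ATP-yielding kinase of the pathway, read 48.2 and 55.7, a difference of 0.21. The array annotation places the Pgk1 probe on chr3:57906830-57906894, whereas the RefSeq table places the gene on chromosome X, so which locus gives the signal is uncertain. Pgam1, phosphoglycerate mutase, read 62.1 and 72.0, a difference of 0.21. These steps were thus between -0.02 and 0.21.

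Neither enolase gene was higher. Eno1, the ubiquitous isozyme, read 126.9 and 114.0, a difference of -0.16, and Eno2, the neuronal isozyme, read 0.567 and 0.564, a difference of -0.01 whose sign changed under 5 alternatives. Pkm2, pyruvate kinase, read 52.3 and 64.9, a difference of 0.31 with an error of 0.20, just short of the smaller rule. It passed that rule with normexp background correction (0.34), median scaling (0.323) and the authors' table (0.37). Ldha, which makes lactate, read 39.6 and 37.7, and its 3 probes gave -0.10 to -0.05. Pyruvate kinase and lactate dehydrogenase, adjoining steps, were on opposite sides of 0.

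Pdk1 read 0.229 and 0.315, which is 1.37-fold higher (log2 difference 0.46, error 0.22). Its signals before scaling were 69.47 and 106.98. With another background correction (normexp) the difference of Pdk1 was 0.23, short of the smaller rule. Of the 2421 genes within 0.5 log2 of its mean level, 4.87% were above it. Pkm2 and Aldoa, with smaller differences but brighter signals, ranked about as high among genes of their own level. There 24 of 534 genes (4.49%) were above Pkm2 and 8 of 177 (4.52%) above Aldoa. Aldoc thus passed the smaller rule under all 11 alternatives run, whereas the place of Pdk1 depended on the background correction.

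**Figure D2:**
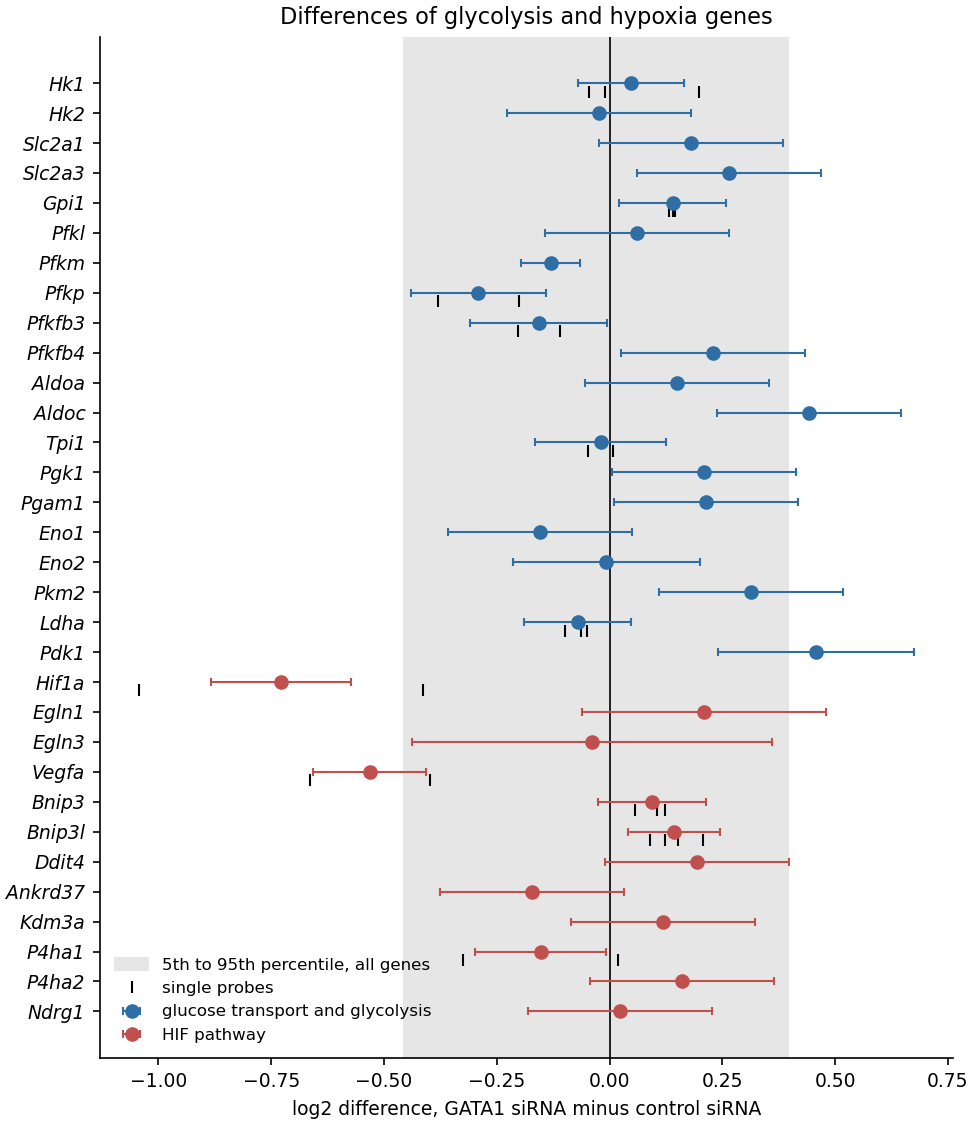
Differences in log2 between the arrays (GATA1 siRNA minus control siRNA) for the 32 measured genes, with bars for the scanner software's error and short marks for single probes where a gene has several. The grey band holds the 5th to 95th percentile of all measured genes, -0.46 to 0.40, and Aldoc and Pdk1 lie above it and Hif1a and Vegfa below it.

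The 12 measured HIF pathway genes ranged from -0.73 to 0.21, with a median of 0.06, 7 above 0 and 5 below. Hif1a gave the largest difference of all 32. Its scaled signals were 1.13 and 0.68, which is 1.66-fold lower (log2 difference -0.73, error 0.16). Of all measured genes 1.54% were below it, and of the 2301 genes within 0.5 log2 of its mean level 22 were.

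The Hif1a value joins 2 unlike probes. The probe designed on the RefSeq transcript lies at chr12:75047269-75047329 on the plus strand (mm9). It read 1975 and 1074 before scaling and 6.51 and 3.16 after, which is 2.06-fold lower (log2 difference -1.04, error 0.20). The other was designed on a cDNA whose accession is not among the Hif1a transcripts of the RefSeq table, and it starts 13304 bases upstream on the same strand. It read 59.7 and 50.3 before scaling, and its difference was -0.41 with an error of 0.23. Both probes were below 0, and over the alternatives the gene ranged from -1.04 (the brighter probe alone) to -0.60.

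The oxygen sensors had low signals, and neither passed a filter of 4 times the lowest signal called well above background. Egln1, the main prolyl hydroxylase of HIF in normal oxygen, read 0.108 and 0.125, a difference of 0.21 with an error of 0.27, and 0.04 with normexp. Its probe is annotated over only 13 bases of the genome. Egln3, a hydroxylase that is itself a HIF target, read 0.054 and 0.053, a difference of -0.04 with an error of 0.40, from 1 of its 2 probes. No difference was detectable for either at this signal.

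Vegfa was the second gene on the lower side. It read 1.52 and 1.05, which is 1.45-fold lower (log2 difference -0.53, error 0.13), with 3.53% of all measured genes below it. The probe at chr17:46154387-46154446 is printed in 2 spots, which read 668 and 671 with the control siRNA and 470 and 477 with the GATA1 siRNA before scaling. Its difference was -0.67. The other Vegfa probe, 7989 bases away, read 316 and 269, a difference of -0.40. Over the alternatives Vegfa ranged from -0.67 to -0.46, and of the 2242 genes within 0.5 log2 of its mean level 40 were lower.

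The HIF targets lay on both sides of 0: of the 9 measured, Vegfa among them, 6 were above 0 and 3 below, with a median of 0.09. The mitophagy receptors Bnip3 and Bnip3l read 6.63 and 7.08, and 10.5 and 11.6. Their differences were 0.09 over 3 probes and 0.14 over 4 probes, and every one of these probes was above 0. Ddit4, an inhibitor of mTORC1 that is induced by several stresses, read 94.7 and 108.3, a difference of 0.19. Ankrd37, an ankyrin repeat gene induced by HIF, read 2.39 and 2.12, a difference of -0.17.

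Kdm3a, a histone H3 lysine 9 demethylase, read 9.64 and 10.5, a difference of 0.12. The collagen prolyl hydroxylase subunits were split, with P4ha1 at 1.45 and 1.30 (difference -0.15, and 0.02 with the brightest probe) and P4ha2 at 7.89 and 8.81 (difference 0.16). The 2 probes of P4ha1 disagreed, at -0.32 and 0.02. Ndrg1, a stress-induced gene, read 32.5 and 33.1, a difference of 0.02. None of these targets passed the smaller rule.

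Adm and Mxi1 have no difference. Adm, the vasodilator peptide adrenomedullin, was above background on the GATA1 siRNA array only, with signals before scaling of 13.5 and 14.5, and no fold could be bounded. Mxi1, a partner of MAX that opposes MYC, was not well above background on either array, with 3.08 and 10.3.

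**Figure D3:**
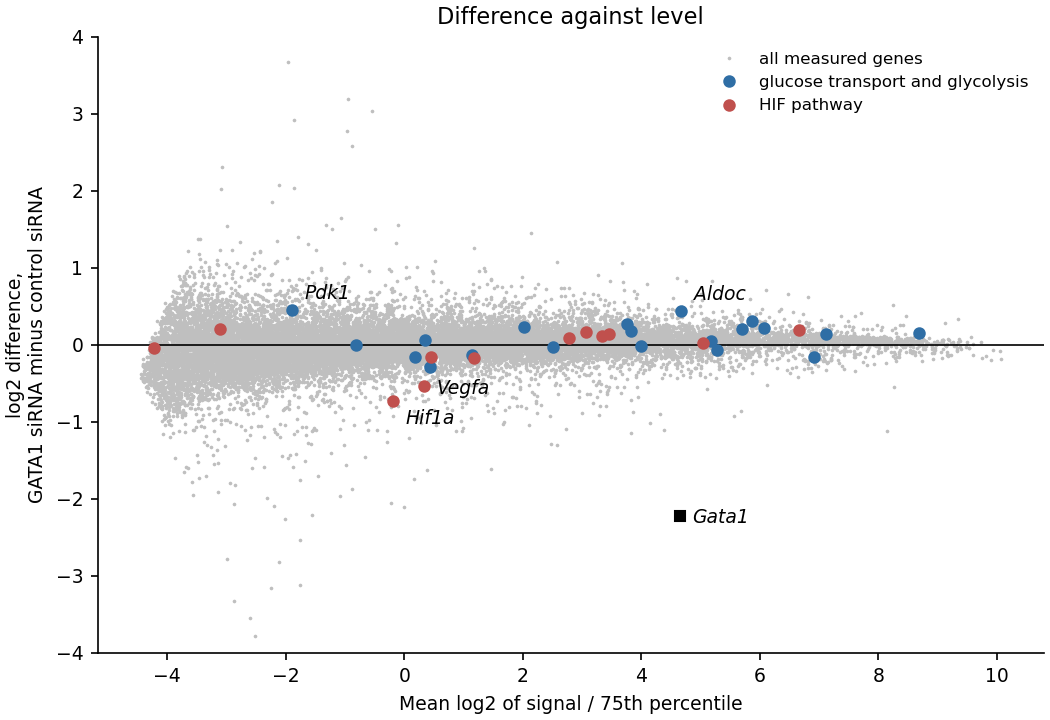
Log2 difference (GATA1 siRNA minus control siRNA) against the mean log2 scaled signal for all 20413 measured genes in grey, with the 20 glucose transport and glycolysis genes in blue, the 12 HIF pathway genes in red and Gata1 as a square. The spread narrows as the signal rises, and Aldoc at 0.44 sits near the upper edge of genes of its level while Gata1 at -2.23 lies far below.

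Against the scanner software's error, 2 genes were higher by more than 2 times their error, Aldoc and Pdk1, where 4.79% of all measured genes were. On the lower side 3 genes were, Pfkm, Hif1a and Vegfa, where 5.26% of all measured genes were. Pfkm, at -0.13, is among them only through an error that takes its 10 spots as independent. Its difference is smaller than the median error of the 32 genes. The errors of the 32 genes ran from 0.06 (Pfkm) to 0.40 (Egln3), with a median of 0.20. Of the 32 genes, 11 rest on several measured probes, all of 1 sign in 8 of them, and 21 rest on 1 probe.

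The targeted gene and the cell type markers give the frame for these values. Gata1 read 54.1 and 11.6, which is 4.68-fold lower (log2 difference -2.23), and 9 genes of the array were below it. All 15 mast cell markers were measured, among them Kit, Fcer1a and Cpa3, with a median of -0.12 and 11 below 0. Of these 6 passed the smaller rule on the lower side (40%, against 9.5% of all measured genes). Among them were the granule protease genes Tpsab1 (-2.11), Mcpt4 (-0.88) and Tpsb2 (-0.55), while Kit was at 0.03, Fcer1a at -0.17 and Cpa3 at 0.04. Markers of other cells lay on either side: 13 of 14 measured neutrophil genes and 11 of 13 measured macrophage and monocyte genes were above 0, with medians of 0.50 and 0.52. Of the 8 measured eosinophil genes 7 were below 0, with a median of -0.49, and of the 8 megakaryocyte genes 5 were, with a median of -0.25. The 6 erythroid, 8 dendritic cell and 4 basophil genes measured had medians of 0.45, 0.42 and 0.27. Sums of scaled signals are given to compare the arrays within a list, not to set lists against each other. The neutrophil sum was 363 and 368, and 98.5 and 144.7 without Csf3r (264.9 and 223.8), left out after its value was seen. The macrophage and monocyte sum was 19.3 and 30.3, and the mast cell sum 2861 and 2620. Of the defining markers, Mmp9, Retnlg and C1qa were not well above background. Genes of dividing cells were above 0 in 11 of 12 cases, with a median of 0.31. The part of these cells, and of division, in the differences of glycolysis and HIF pathway genes was not tested. On the array surface, none of the 53 probes lay at a spot where at least 2 of the 8 nearest spots differed by over 4-fold between arrays, and 4 had 1 such neighbour. Over the whole array 815 of 59305 spots were of that kind, so a count of 0 says little about these genes. Of the markers, Csf3r and the division gene Cdc20 had 3 such neighbours and the mast cell gene Hdc had 4.

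Genes of the same pathways outside the 34 were described by lists drawn up for this comparison. Of 43 other genes of glycolysis, lactate transport and pyruvate entry, 33 were measured, with a median of 0.08, 4 past the smaller rule on the higher side (12.1%, against 7.31% of all measured genes) and 5 on the lower (15.2%, against 9.5%). Higher were the hexokinase Hk3 (0.54), the phosphoglucomutase Pgm2 (0.48), the muscle mutase Pgam2 (0.44) and the D-lactate dehydrogenase Ldhd (0.43). Before scaling Pgm2 read 3928 and 6159, Pgam2 25.7 and 39.3, and Ldhd 16.7 and 25.4. Lower genes included the hexokinase-like Hkdc1 (-1.43, from 52.9 to 22.1), the testis isozyme Ldhc (-0.49), the monocarboxylate transporter Slc16a7 (-0.45) and Pfkfb2 (-0.36). Isozymes of the same step thus lay on both sides of 0.

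The HIF machinery, with subunits, partners and the von Hippel-Lindau complex, held 16 measured genes, 8 above 0 and 8 below, with a median of 0.00. Arnt2, a partner subunit, was at 0.52, and the ubiquitin ligase gene Siah2 at -0.41 and Hif3a at -0.37 were lower. Epas1, encoding the other main alpha subunit, read 3091 and 3036 before scaling and -0.19 as a difference, against -0.73 for Hif1a. Epas1 was chosen for mention after its value was seen.

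Among 44 further HIF targets 35 were measured, with a median of 0.02, 6 past the smaller rule on the higher side (17.1%, against 7.31% of all measured genes) and 1 on the lower (2.86%, against 9.5%). Plod2, a collagen lysyl hydroxylase, was at 0.98 (179.6 to 397.8 before scaling). Hmox1, heme oxygenase, was at 0.63 over 2 probes. Stc2 (0.56, error 0.25), Plod1 (0.40, error 0.15) and Cxcr4 (0.34, error 0.29) were also on the higher side. Signals before scaling were low for Stc2 (33.9 to 56.1) and Cxcr4 (26.2 to 37.2). Car12, a carbonic anhydrase, was lower at -0.82. Several of these genes are also targets of other factors.

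In the adjoining pathways a few genes stood apart. The 8 genes of the pentose phosphate pathway, which yields NADPH, had a median of 0.20. Of these, 7 were above 0 (87.5%, against 52.7% of all measured genes), led by Pgd at 0.51 (8119 to 12929 before scaling). Rpe was lower at -0.42. The 18 genes of the tricarboxylic acid cycle had a median of 0.10, and none passed the smaller rule. Of all measured genes 7.31% passed it on the higher side and 9.5% on the lower. Aco1 at -0.318 and Idh3b at 0.21 were the farthest from 0 on each side. Of 12 transcription factors linked to glycolysis, Mxd1, which opposes MYC, was at 0.35 and Esrra at 0.14, and their median was 0.05. Against the 0.01 of all genes these medians are described only, since no test was possible.

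**Figure D4:**
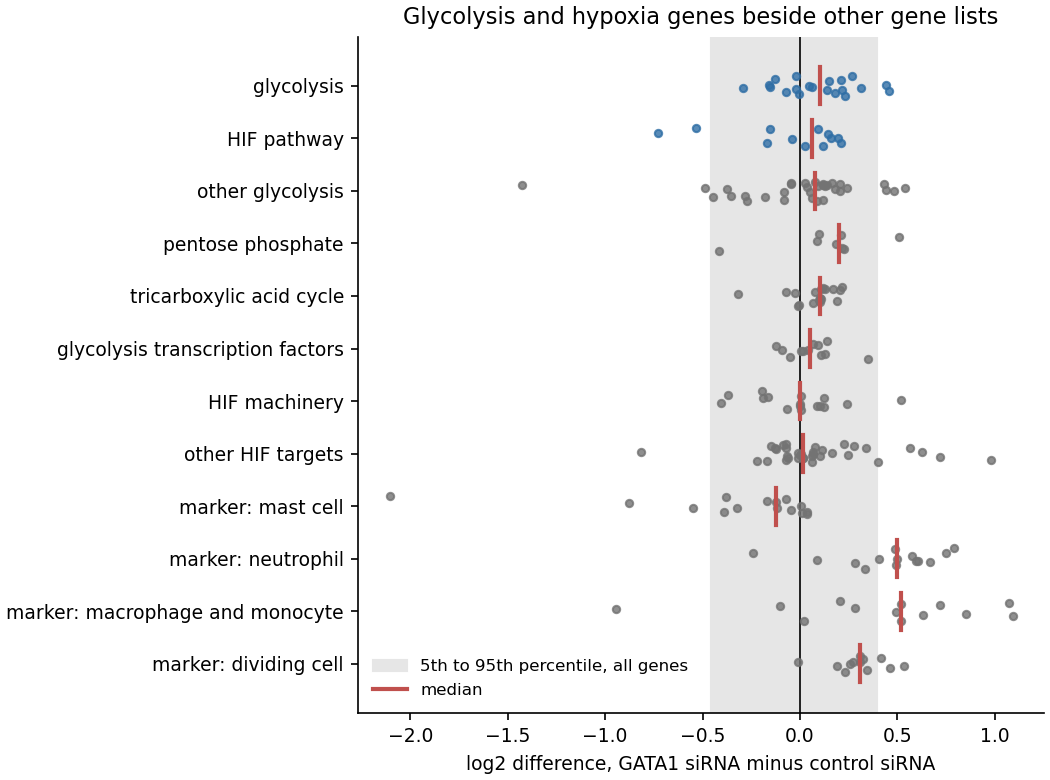
Differences in log2 between the arrays (GATA1 siRNA minus control siRNA) for the measured genes of each list, 1 point per gene, with the list's median in red and the 5th to 95th percentile of all measured genes (-0.46 to 0.40) in grey. The medians of the metabolic lists lie between 0.00 and 0.20, under those of the neutrophil (0.50) and macrophage (0.52) markers.

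Most of the 32 genes kept their sign when the arrays were processed in other ways. Over 11 alternatives, 16 genes were above 0 throughout and 8 below 0 throughout. Egln1, counted among the 16, had a value in only 10 of them. No such count was made over all measured genes, so these numbers cannot be set against the array. Taking the brightest or median probe leaves a gene with 1 measured probe unchanged, which favours a constant sign. The genes below 0 throughout were Pfkm, Pfkp, Pfkfb3, Eno1, Ldha, Hif1a, Vegfa and Ankrd37. The sign changed under at least 1 alternative for Hk1, Hk2, Pfkfb4, Tpi1, Eno2, Egln3, P4ha1 and Ndrg1. For Hk2 it changed only with the authors' table, which shifts every gene alike. With the authors' own scaling 23 of the 32 were above 0, where 64.1% of all measured genes were, against 19 and 52.7% here.

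**Figure D5:**
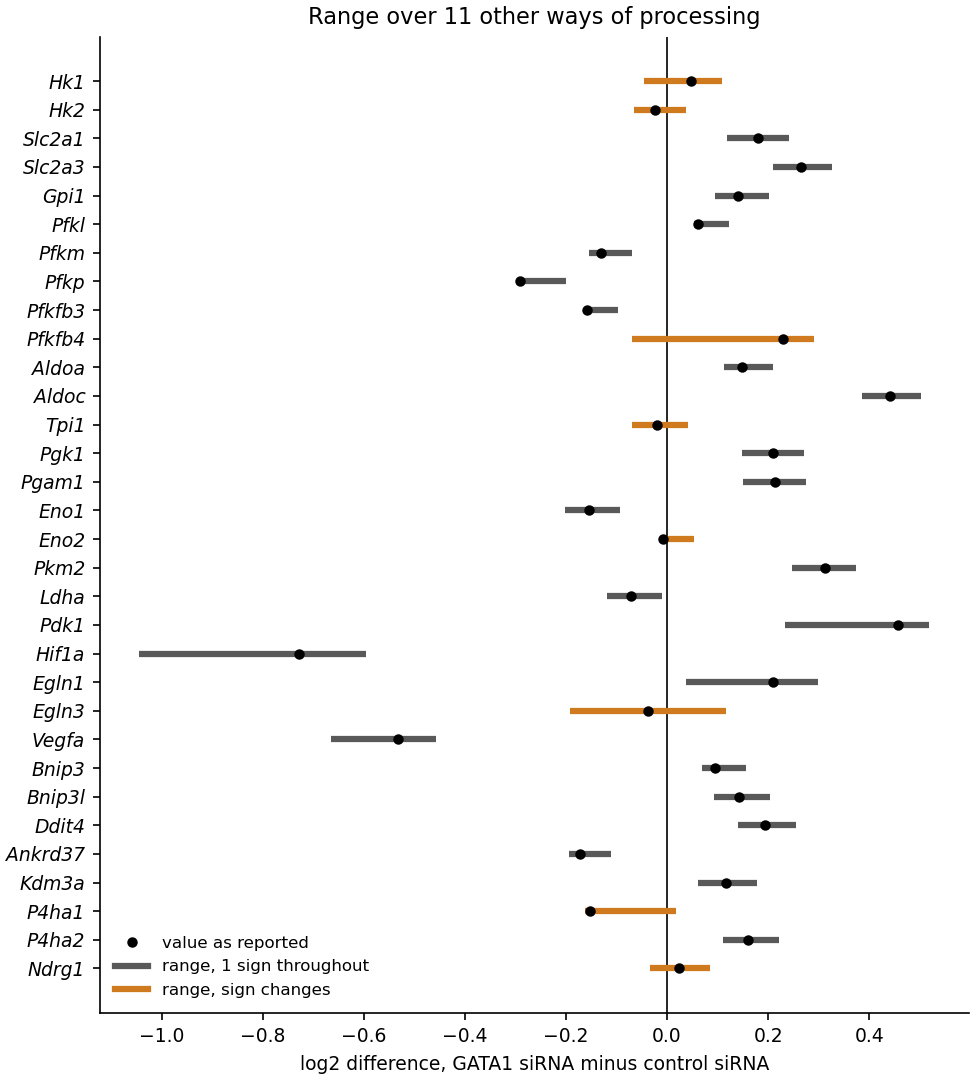
Log2 difference of each measured gene as reported (point) and its range over 11 alternative ways of processing (bar), in grey where the sign stays and in orange where it changes. Hif1a spans -1.04 to -0.60 and Vegfa -0.67 to -0.46, both clear of 0, whereas Pfkfb4 spans -0.07 to 0.29.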

How the data were processed

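The deposited intensity values come from Agilent Feature Extraction 10.7.3.1, per the file headers, and are background-subtracted and detrended with no scaling between arrays. Of 59305 non-control spots, 31617 (53.3%, control siRNA) and 33062 (55.7%, GATA1 siRNA) were well above background, and none was saturated. Control and outlier spots (117 and 133) were left out here, repeated spots were averaged in log2, and each array was divided by its 75th percentile. A probe was measured where a share of at least 0.5 of its spots were well above background on both arrays. A gene is the mean of its measured probes under the array's gene name. With 1 array per group no test was possible, and rules of size (1.25-fold, a log2 difference of 0.322, and 1.5-fold) were used. Both arrays lie on the same slide, and array position and siRNA cannot be told apart. Code was tested on simulated data. The number of arrays limits the precision.

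The genes and lists were chosen with earlier results of these data known, and the counts among genes of like level were added after the values were seen. Named are all 34 genes, Gata1 and, of each other pathway list, genes past the smaller rule or the 2 largest, except a few items not reported here. Alternatives were normexp (offset 50, limma 3.58.1 in R 4.3.3), scaling by median, quantiles, loess (span 0.4) or the authors' deposited table (processed signal over the array median), no filter or a stricter one on dim probes, the brightest or median probe, outlier spots kept, and spots with differing neighbours left out. Probe coordinates are the array annotation's (mm9). Promoters are RefSeq's (GRCm38.p6) and no coordinate was converted.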

Additional observations from a re-analysis of the deposited data

How the results depend on the processing

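Of 350 values of single genes over 11 alternatives, 52 moved by more than 0.06, the median SD over repeated spots, and no gene past the smaller rule of size turned its direction. Among the 52 are the values of all 32 genes with the authors' table, which shifts every gene alike. With the authors' table, whose scaling moves the median of all genes from 0.01 to 0.07, the median of the 32 genes became 0.14, that of the glycolysis genes 0.16, that of the HIF pathway genes 0.12, and Gata1 -2.17, with 4 genes past the smaller rule on the higher side in place of 2. Without the filter on dim probes 1 gene, Mxi1, passed 1.5-fold higher in place of 0, and 40.0% of 34788 genes were above 0. With the brightest probe 2 genes passed 1.5-fold lower, Hif1a and Vegfa, in place of 1. Egln1 and Egln3 gave no value under the stricter filter. No replicate could be left out with 1 array per group. No paired analysis was possible because each group is 1 array.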
